A study of Bos taurus with 8 samples.

Results

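The interferon regulatory factors (IRFs) are a family of transcription factors, and 8 of its genes are described here: IRF1, IRF2, IRF3, IRF4, IRF5, IRF7, IRF8 and IRF9. They were chosen by gene name, which matched 1 row each among the 21861 genes of the scRNA-seq tables (Ensembl genes ENSBTAG00000031231, ENSBTAG00000010002, ENSBTAG00000006633, ENSBTAG00000002929, ENSBTAG00000004989, ENSBTAG00000047680, ENSBTAG00000017824 and ENSBTAG00000005816, in that order). Blood of 4 lactating Holstein cows aged 2 years was pooled, and the pool was split into a control without lipopolysaccharide (no LPS) and 3 portions that received 2 µg/ml LPS, a bacterial cell wall product, for 2 h, 4 h or 8 h at 37 °C. Mononuclear cells of each portion gave 1 scRNA-seq and 1 scATAC-seq library, so that each treatment was 1 library per assay of 1 pool of animals and no p-value between treatments could be had. An incubation time of the control is not given in the sources used here, so LPS and time outside the animal cannot be told apart.

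All IRFs share a DNA-binding domain that recognises interferon-stimulated response elements. IRF3, IRF5 and IRF7 are switched on by phosphorylation after pathogen sensing and start the transcription of interferons, IRF9 carries the signal of the interferon receptor to DNA together with STAT2, and IRF1 and IRF2 are an activator and a repressor of overlapping targets. IRF4 and IRF8 act mainly in the development and activation of lymphocytes and myeloid cells, often bound together with SPI1, SPIB or BATF. RNA levels do not report on the phosphorylation of these proteins.

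Between 3860 and 10429 barcodes were deposited per scRNA-seq library, and 3411 to 9865 of them per library were kept (28484 cells in all, with a median of 3997 to 4757 UMIs, the counted RNA molecules, per cell). Pairs of scRNA-seq libraries shared 8 to 24 barcodes. Among the scATAC-seq libraries the control stood apart, with 975012 counts against 11957904 to 30250143, and it shared 228 barcodes with the 2 h library (7.31% of its own) where the other pairs shared 10 to 31. Levels are given as CPM, the counts of a gene scaled to a total of 1000000 summed UMIs of a library or gate, with exact 95% Poisson intervals that cover counting error only. Ratios are log2 of (CPM + 1) over (CPM + 1), their exact intervals were computed without the added 1, and a gene was called past 2-fold with a log2 ratio of at least 1 in size and at least 20 UMIs over the compared sums.

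Cell classes were gated on raw UMIs of a single marker without any UMI of the other 3: at least 2 UMIs of CD14 (monocytes), or at least 1 of CD3E (T cells), MS4A1 (B cells) or NCR1 (natural killer cells). The CD14 gate held 707, 308, 117 and 66 cells in the no LPS, 2 h, 4 h and 8 h libraries, or 9.04%, 3.12%, 1.58% and 1.93% of the cells. The CD3E gate held 1550 to 4937, the MS4A1 gate 663 to 2392 and the NCR1 gate 38 to 97 cells. Each gate was highest for its own marker list. Summed over the 9 monocyte markers, the CD14 gate had 2499 to 4914 CPM and the other gates 13.1 to 72.3 CPM, which was 0.525% to 1.99% of the CD14 gate of the same library. The 7 T cell markers summed to 767 to 837 CPM in the CD3E gate, the 9 B cell markers to 1538 to 2179 CPM in the MS4A1 gate and the 9 natural killer cell markers to 2227 to 2636 CPM in the NCR1 gate. The CD14 gate also carried 7260 to 11709 CPM of 5 neutrophil markers, and the NCR1 gate 418 to 496 CPM of the T cell markers.

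Over all cells, IRF4 and IRF7 were the members past 2-fold after LPS, IRF4 at 2 h and 4 h and IRF7 at 4 h. At 2 h 1 of 8 members was at least 2-fold higher than in the no LPS library, where 0.938% of the 12150 genes counted were. At 4 h it was 2 of 8 members beside 1.28% of genes, and at 8 h 0 of 8 beside 0.492%. No member was 2-fold lower at any time. The median log2 ratio of the 8 members was 0.29, 0.44 and 0.20 at the 3 times, and that of all genes counted was -0.03, 0.02 and 0.10. A sum over all cells cannot tell a changed level within cells from a changed mix of cells, and the 9.04% of cells in the CD14 gate of the control had become 1.58% at 4 h, so the members are described below also by gate.

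**Figure D1:**
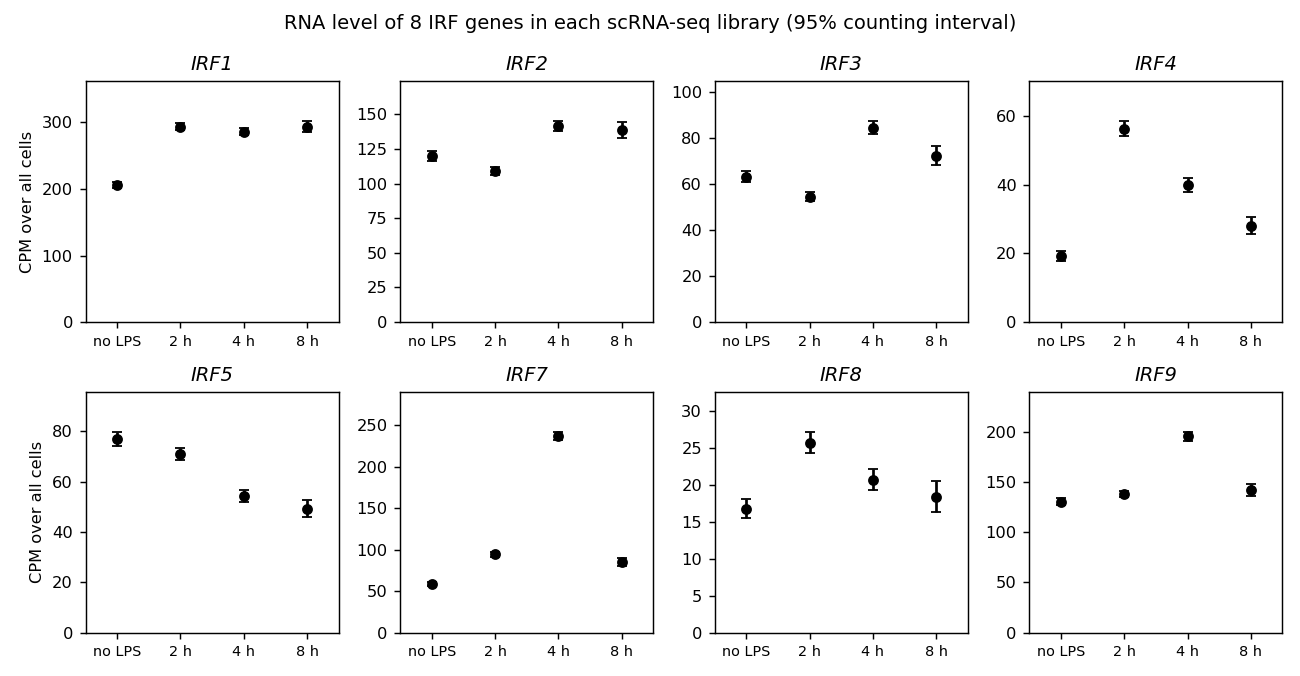
CPM over all kept cells (vertical axes, linear and starting at 0) for each of 8 IRF genes in the no LPS, 2 h, 4 h and 8 h libraries (1 library each); bars are exact 95% Poisson intervals of the counts. IRF7 stands highest at 4 h, IRF4 highest at 2 h, and IRF5 is lowest at 8 h.

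IRF7, the interferon-inducible member that amplifies the type I interferon response, was highest at 4 h over all cells and in each gate. Its level over all cells was 58.4, 94.6, 237 and 85.2 CPM in the no LPS, 2 h, 4 h and 8 h libraries. The log2 ratio to the control was 0.69 (95% interval 0.62 to 0.77) for 2 h, 2.01 (1.96 to 2.09) for 4 h and 0.54 (0.45 to 0.64) for 8 h, and from 4 h to 8 h the level fell by 1.47 on the log2 scale. The 4 h value thus stood apart from the 3 others, while 2 h and 8 h lay close to each other.

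The 4 h peak of IRF7 was past 2-fold in 4 of 4 gates. In the CD14 gate the levels in the no LPS, 2 h, 4 h and 8 h libraries were 17.2, 27.5, 106 and 31.4 CPM, with a log2 ratio of 2.55 (2.24 to 3.0) at 4 h. In the CD3E gate they were 67.0, 92.5, 225 and 86.2 CPM, with 1.73 (1.65 to 1.85) at 4 h. The MS4A1 gate had 68.1, 113, 273 and 85.8 CPM and a ratio of 1.99 (1.87 to 2.14). In these 3 gates the 4 h library was the highest and the control the lowest of the 4. In the NCR1 gate 11, 45, 77 and 10 UMIs gave 38.2, 95.2, 148 and 38.1 CPM, so that the control and 8 h were level and the ratios were 1.30 (0.35 to 2.42) at 2 h and 1.93 (1.04 to 3.02) at 4 h.

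The CD14 gate had the lowest IRF7 level in 4 of 4 libraries, although its ratio at 4 h was the largest of the 4. At 4 h 44.4% of the cells of the CD14 gate had an IRF7 UMI, against 13.7% without LPS. Of the MS4A1 gate 60.9% had one at 4 h and 24.4% without LPS, and in the CD3E gate 52.4% and 23.1%. With each cell thinned to 1000 UMIs the shares were 15.1% and 3.13% in the CD14 gate, 22.5% and 7.03% in the MS4A1 gate, and 18.5% and 6.15% in the CD3E gate. Thinned or not, the share at 4 h was the higher one in each of these gates.

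IRF3, the constitutive partner of IRF7 that waits in the cytoplasm for its kinase, moved little. Over all cells it had 63.2, 54.5, 84.3 and 72.2 CPM in the no LPS, 2 h, 4 h and 8 h libraries, and its log2 ratios were -0.21 (-0.29 to -0.13), 0.41 (0.34 to 0.49) and 0.19 (0.09 to 0.29). With each class held at its share of UMIs in the control, these ratios were -0.36, 0.21 and 0.02. The 2 h library was the lowest and the 4 h library the highest, and no ratio reached 2-fold. Its levels were 85.6, 63.4, 101 and 75.1 CPM in the MS4A1 gate, and in the CD3E gate 72.9, 60.0, 81.9 and 72.4 CPM. The CD14 gate was at 10.1 to 17.3 CPM on 11 to 93 UMIs, below the 3 other gates in 4 of 4 libraries. In the NCR1 gate 25 to 54 UMIs gave 52.9 to 137 CPM, with intervals that overlap between most libraries.

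IRF9, the DNA-binding subunit of the complex that interferon receptors activate, was also highest at 4 h, past 2-fold in the CD14 gate alone of the 4 gates. Over all cells it had 130.3, 138, 195 and 142 CPM in the no LPS, 2 h, 4 h and 8 h libraries, and the ratio was 0.58 (0.53 to 0.63) at 4 h. With each class held at its share of UMIs in the control, the ratios at 2 h, 4 h and 8 h were -0.05, 0.45 and -0.03. The CD14 gate had 36.7, 38.4, 87.2 and 36.1 CPM, with a ratio of 1.23 (0.90 to 1.59) at 4 h, past 2-fold. The CD3E gate had 133, 137, 176 and 138 CPM and a ratio of 0.40 (0.32 to 0.48). The MS4A1 levels were 195, 167, 235 and 157 CPM, so that 2 h and 8 h lay below the control, with ratios of -0.22 (-0.32 to -0.13) and -0.31 (-0.45 to -0.18). The NCR1 gate had 108, 125, 135 and 126 CPM on 31 to 70 UMIs, with intervals that overlap throughout. The counting interval of the CD14 gate at 4 h did not overlap those of the CD3E and MS4A1 gates, and the difference between gates was not tested across replicates.

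**Figure D2:**
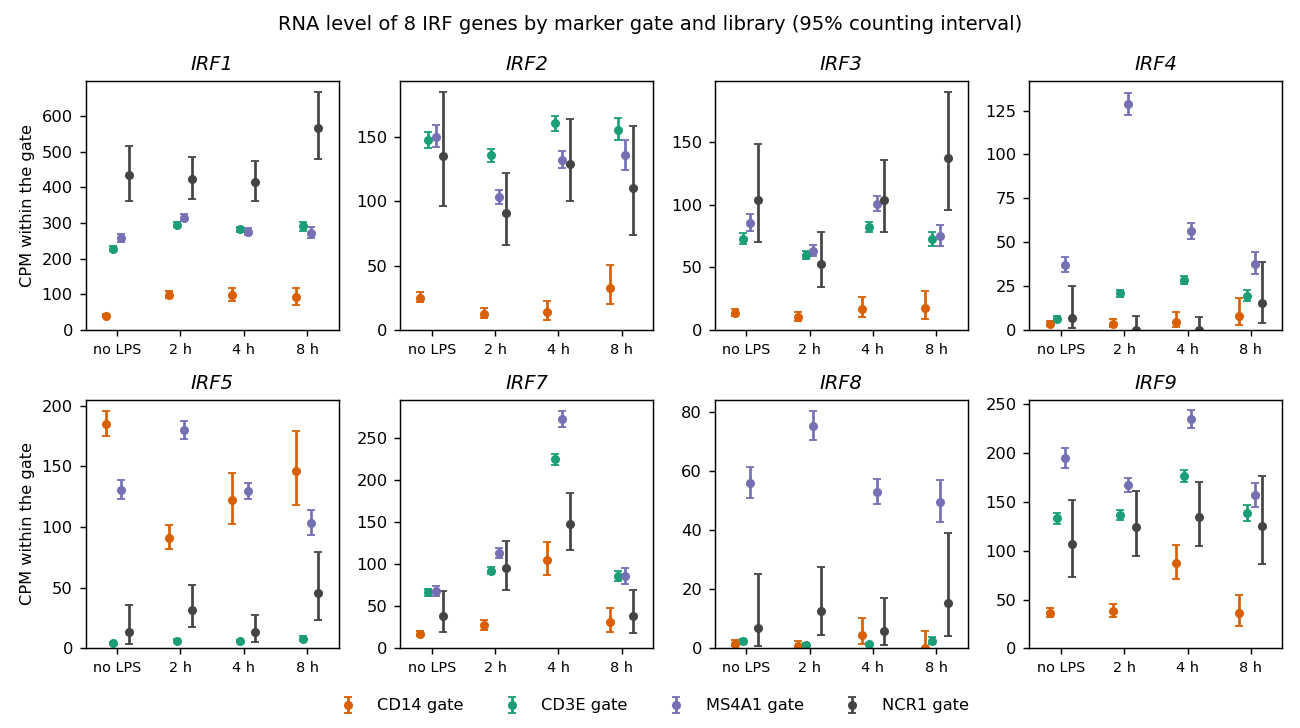
CPM within the CD14, CD3E, MS4A1 and NCR1 gates (colours; linear axes starting at 0) for each of 8 IRF genes in the no LPS, 2 h, 4 h and 8 h libraries; points are single libraries and bars exact 95% Poisson intervals. IRF7 peaks at 4 h in 4 of 4 gates, IRF4 peaks at 2 h in the MS4A1 gate, and IRF8 stays at the bottom in the CD14 and CD3E gates.

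IRF1, an activator that interferon-γ and inflammatory signals switch on quickly, was higher after LPS at each time over all cells. Its level was 207 CPM without LPS and 294, 286 and 294 CPM after it, with ratios of 0.51, 0.47 and 0.51. With each class held at its share of UMIs in the control, these ratios were 0.39, 0.32 and 0.36. The 3 LPS libraries lay close together and apart from the control. By gate the difference was largest in the CD14 gate, which had 40.2 CPM without LPS and 98.1, 97.8 and 91.1 CPM after it. These ratios were 1.26 (1.05 to 1.52), 1.26 (0.95 to 1.60) and 1.16 (0.74 to 1.59), all past 2-fold. At 8 h the ratio was 0.86 with the CD14 gate set at 4 UMIs and 0.92 without the upper limit on genes per cell, both under 2-fold.

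In lymphocytes IRF1 differed less between libraries. The CD3E gate had 228 CPM without LPS and 282 to 295 CPM after it, with ratios of 0.31 to 0.37. The MS4A1 gate had 258 CPM without LPS and 315, 275 and 272 CPM after it, where the interval of the 8 h ratio included 0 (-0.03 to 0.19). The NCR1 gate had the highest IRF1 level in 4 of 4 libraries, 434, 423, 414 and 567 CPM, and there the 2 h and 4 h libraries did not differ from the control beyond counting error.

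IRF2, the repressor of IRF1 targets, had no ratio to the control past 2-fold. Over all cells it had 120.0, 109, 141 and 138 CPM in the no LPS, 2 h, 4 h and 8 h libraries. With each class held at its share of UMIs in the control, the log2 ratios were -0.30, 0.01 and 0.03. In the MS4A1 gate the 2 h library was the lowest of 4, at 103 CPM against 151 in the control, with a ratio of -0.54 (-0.66 to -0.43). In the CD3E gate the levels ran from 136 CPM at 2 h to 161 CPM at 4 h. The CD14 gate had 25.1, 12.6, 14.1 and 33.0 CPM on 169, 45, 16 and 21 UMIs, with ratios of -0.94 (-1.50 to -0.51) at 2 h and -0.79 (-1.67 to -0.09) at 4 h. The median of all genes counted in that gate was itself -0.56 at 2 h and -0.20 at 4 h, and 21.3% of them were at least 2-fold lower at 2 h. From 4 h to 8 h the ratio of IRF2 in that gate was 1.17 (0.22 to 2.26) on 37 UMIs, past 2-fold. The NCR1 gate had 135, 91.0, 129 and 110.4 CPM on 29 to 67 UMIs.

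IRF5, which drives inflammatory cytokine genes in myeloid cells and B cells, was highest in the CD14 and MS4A1 gates. In the CD14 gate it had 185, 91.3, 122 and 146 CPM in the no LPS, 2 h, 4 h and 8 h libraries. B cells of the MS4A1 gate had 131, 179.9, 129.7 and 103 CPM. The gates thus crossed, with CD14 above MS4A1 in the control and at 8 h, MS4A1 above CD14 at 2 h, and overlapping intervals at 4 h. In the CD3E gate it had 4.47 to 8.06 CPM, which was 2.41% to 7.09% of the CD14 gate of the same library, beside 0.525% to 1.10% for the 9 monocyte markers. Against the MS4A1 gate it was 3.42% to 7.80%. The 9 B cell markers were there at 6.55% to 8.73%, and at 1.38% to 3.26% without BLK. Whether RNA of both gates together would reach the level of the CD3E gate was not tested. The NCR1 gate had 13.9, 31.7, 13.5 and 45.7 CPM on 4, 15, 7 and 12 UMIs, or 7.5% to 34.7% of the CD14 gate, beside 0.847% to 1.99% for the monocyte markers.

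The ratio of IRF5 in the CD14 gate at 2 h was -1.01 (-1.20 to -0.84), the single member and gate pair at least 2-fold lower than in the control (1 of 7 members counted there). The median of all genes counted in that gate was itself -0.56 at 2 h, and 21.3% of them were at least 2-fold lower. With TMM scaling the ratio was -0.53, under 2-fold. In the MS4A1 gate the 2 h ratio was 0.46 (0.35 to 0.57) and the 8 h ratio -0.34 (-0.51 to -0.17). Over all cells IRF5 had 76.9, 71.0, 54.3 and 49.3 CPM, with a ratio of -0.63 (-0.75 to -0.53) at 8 h. Without LPS 42.1% of all IRF5 UMIs came from the CD14 gate, and after LPS 9.59%, 6.37% and 11.3%. With each class held at its share of UMIs in the control, the 8 h ratio was -0.23.

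The share of cells with an IRF5 UMI in the CD14 gate was 67.0%, 49.7%, 50.4% and 51.5% in the 4 libraries, at a median of 9665 to 12608 UMIs per cell. For the MS4A1 gate it was 41.7%, 54.3%, 49.3% and 37.7%, at a median of 3856 to 5410 UMIs. The CD3E gate, at 4070 to 5245 UMIs, had 1.84% to 3.94%. Thinned to 1000 UMIs, the shares were 9.67% to 17.0% in the CD14 gate, 10.8% to 16.9% in the MS4A1 gate and 0.499% to 1.40% in the CD3E gate.

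IRF4, a factor of activated lymphocytes and plasma cells that acts with BATF, was highest at 2 h over all cells, at 19.2, 56.3, 39.9 and 28.0 CPM. The 2 h ratio was 1.50 (1.43 to 1.67), the 4 h ratio 1.02 (0.93 to 1.18) and the 8 h ratio 0.52 (0.37 to 0.71). At 4 h the ratio was 0.99 with TMM scaling, and it was 0.52 without the upper limit on genes per cell, so that the 4 h value was not past 2-fold in either case. The B cell and T cell gates peaked at different times.

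In the MS4A1 gate IRF4 had 37.1, 129, 56.2 and 37.7 CPM, with ratios of 1.77 (1.61 to 1.98), 0.59 (0.40 to 0.80) and 0.02 (-0.27 to 0.31) to the control. The 2 h library stood far above the rest, and the 8 h library was level with the control. In the CD3E gate it had 6.30, 20.9, 28.3 and 19.5 CPM, with ratios of 1.58 (1.41 to 2.06), 2.00 (1.85 to 2.49) and 1.49 (1.25 to 2.01). There the level was highest at 4 h and was still past 2-fold at 8 h, although without the upper limit on genes per cell the 8 h ratio was 0.85 and the 4 h ratio 1.41. From 2 h to 4 h the log2 ratio of IRF4 was -1.18 (-1.33 to -1.06) in the MS4A1 gate, past 2-fold lower, and 0.42 (0.26 to 0.62) in the CD3E gate.

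The share of cells with an IRF4 UMI in the MS4A1 gate was 13.1% without LPS and 33.9% at 2 h, or 3.85% and 10.5% after thinning to 1000 UMIs. In the CD3E gate it was 2.10% without LPS and 10.0% at 4 h, or 0.562% and 2.44% after thinning. The CD14 gate held 22, 13, 5 and 5 IRF4 UMIs. Its ratio of 1.05 at 8 h counted as past 2-fold, with an interval that included 0 (-0.49 to 2.70), and it was -0.58 without the upper limit on genes per cell. The NCR1 gate held 2, 0, 0 and 4 UMIs. There 0 of 97 cells at 2 h allows a share of cells with a UMI of up to 3.73% by the exact interval, or 3.09% by 3 counts of 97 cells.

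IRF8, a factor of B cells and of dendritic cell and monocyte development, was a gene of the MS4A1 gate among the 4 gates. Its levels there were 55.9, 75.1, 52.9 and 49.4 CPM in the no LPS, 2 h, 4 h and 8 h libraries, with a ratio of 0.42 (0.26 to 0.59) at 2 h. Between 63.4% and 75.0% of all IRF8 UMIs came from this gate. The CD3E gate had 1.15 to 2.40 CPM on 20 to 36 UMIs, which was 1.53% to 4.87% of the MS4A1 gate, beside 6.55% to 8.73% for the 9 B cell markers summed. Of these 9, BLK was itself higher in the CD3E gate (89.9 to 114 CPM) than in the MS4A1 gate (22.3 to 34.9 CPM), and the other 8 summed to 1.38% to 3.26%. After thinning to 1000 UMIs 0.083% to 0.334% of the cells of the CD3E gate had an IRF8 UMI, against 4.28% to 6.94% in the MS4A1 gate.

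The CD14 gate held 11, 3, 5 and 0 IRF8 UMIs at a depth of 636330 to 6733938 UMIs, so its level of 0 to 4.40 CPM did not exceed that of the CD3E gate beyond counting error. The MS4A1 gate was above it in 4 of 4 libraries. The NCR1 gate held 2, 6, 3 and 4 UMIs. Over all cells IRF8 had 16.8, 25.8, 20.8 and 18.4 CPM, with ratios of 0.59 (0.48 to 0.76), 0.29 (0.16 to 0.46) and 0.12 (-0.07 to 0.33). With each class held at its share of UMIs in the control, these ratios were 0.38, 0.06 and -0.01.

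Ordered by mean level on the log2 scale, the 4 gates give 3 neighbouring pairs for each member, or 24 pairs in all. In 16 of the 24 the order held in 4 of 4 libraries. For these the exact 2-sided sign-flip permutation test gives p = 0.13, the smallest it can give with 4 libraries. The 4 libraries are different treatments of the same blood pool and not replicates, so this p-value is a description and decides nothing. The pairs were also sorted by mean level in these same libraries, which favours an order that holds. IRF2, IRF3 and IRF9 were lower in the CD14 gate than in each other gate, with ranges over the libraries that did not overlap, and the same held for IRF1. IRF5 had the opposite order against the CD3E and NCR1 gates. CD3E and MS4A1 were not told apart for IRF1, where each was higher in 2 of 4 libraries.

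**Figure D3:**
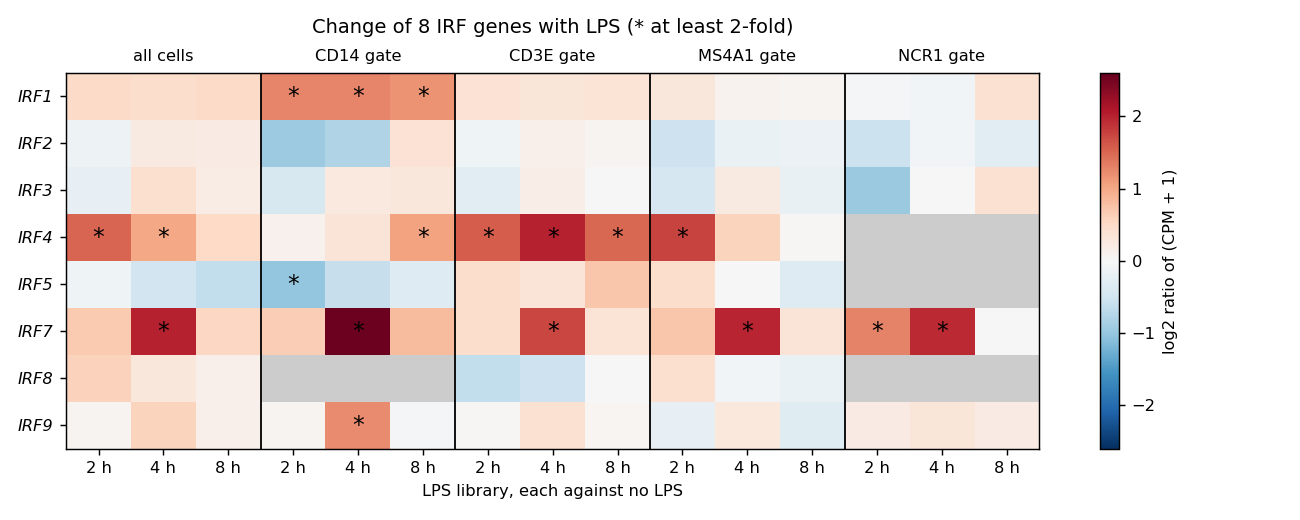
Log2 ratio of (CPM + 1) of each LPS library to no LPS (colour, red higher and blue lower) for 8 IRF genes (rows) over all cells and within 4 gates (column blocks); an asterisk marks at least 2-fold with at least 20 UMIs, and grey marks pairs with fewer than 20 UMIs. IRF7 at 4 h is marked in each block, IRF1 at each time in the CD14 block, and IRF4 at each time in the CD3E block.

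Set against all genes, the counts of members past 2-fold within the gates were as follows. In the CD14 gate 1 of 7 members with at least 20 UMIs was higher at 2 h (IRF1), beside 4.20% of genes, and 3 of 7 at 4 h (IRF1, IRF7 and IRF9), beside 5.59%. At 8 h it was 2 of 7 (IRF1 and IRF4), beside 5.40%, of which IRF4 turned to the other direction without the upper limit on genes per cell. In the CD3E gate 1 of 8 (IRF4) was higher at 2 h beside 0.616% of genes, 2 of 8 (IRF4 and IRF7) at 4 h beside 1.08%, and 1 of 8 (IRF4) at 8 h beside 0.707%.

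In the MS4A1 gate 1 of 8 (IRF4) was higher at 2 h beside 2.54% of genes, 1 of 8 (IRF7) at 4 h beside 2.56%, and 0 of 8 at 8 h beside 1.70%. In the NCR1 gate, where 5 members had at least 20 UMIs, 1 of 5 (IRF7) was higher at 2 h beside 4.57% of genes, 1 of 5 (IRF7) at 4 h beside 5.46%, and 0 of 5 at 8 h beside 3.88%. The minimum of 20 UMIs leaves out members of low level, so the members counted are not all 8 in the CD14 and NCR1 gates.

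The genes around the IRFs were taken as fixed lists. Of 11 listed receptors and adaptors upstream of the IRFs, 1, 3 and 0 were at least 2-fold higher over all cells at the 3 times. Those past 2-fold were IFIH1, DDX58 and CGAS. Of all genes counted, 0.938%, 1.28% and 0.492% were. IFIH1, a sensor of double-stranded RNA, had 45.7, 145, 239.6 and 68.4 CPM. DDX58, which encodes the sensor RIG-I, had 17.0, 18.2, 98.6 and 27.4 CPM. CGAS, the sensor of cytosolic DNA, had 3.22, 5.89, 11.3 and 5.76 CPM. IFIH1 and DDX58 are also on the list of interferon targets, so the 2 lists are not separate for them. The LPS receptor TLR4 had 23.7 CPM without LPS and 12.7 CPM at 8 h over all cells, a ratio of -0.85. The share of cells in the CD14 gate was 9.04% and 1.93% in these libraries, and a link between the 2 was not tested. Within the CD14 gate TLR4 had 86.3, 96.4, 152 and 84.9 CPM, none past 2-fold. Of 7 kinases and ubiquitin ligases that pass the signal on, 0 were past 2-fold at any time. TBK1, the kinase of IRF3, had 16.1 to 17.7 CPM and IKBKE 14.0 to 22.2 CPM.

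Of 6 listed interferons and receptors, IFNG was past 2-fold at 2 h and 4 h, with 0.909, 8.71, 4.03 and 1.02 CPM. The receptor chains IFNAR1 and IFNAR2 stayed at 59.5 to 74.4 CPM. Of 5 signal partners, STAT2, which binds IRF9, was past 2-fold at 4 h, with 20.2, 24.6, 44.2 and 33.6 CPM. Of 8 DNA-binding partners and co-repressors, BATF, which pairs with IRF4, was higher at 2 h and 4 h, with 107, 343, 334 and 175 CPM. SPI1, which encodes the myeloid and B cell factor PU.1 that pairs with IRF4 and IRF8, was lower at 4 h and 8 h over all cells, with 90.1, 59.0, 37.7 and 44.4 CPM. Within the gates it was not past 2-fold lower at any time. The CD14 gate had 277, 311, 333 and 305 CPM of SPI1, and the MS4A1 gate 104, 72.5, 55.1 and 65.4 CPM, with ratios of -0.52, -0.91 and -0.66. The share of cells in the CD14 gate went from 9.04% without LPS to 1.58% at 4 h and 1.93% at 8 h, and a link to the level of SPI1 was not tested.

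Of 35 listed interferon targets, 7, 27 and 2 were at least 2-fold higher over all cells at the 3 times, and 0 were lower. The shares of all genes counted that were higher were 0.938%, 1.28% and 0.492%. IFIH1 and DDX58, named above, are among the 35 targets. The median log2 ratio of the targets was 0.35, 2.05 and 0.57, beside -0.03, 0.02 and 0.10 for all genes counted. ISG15, a ubiquitin-like modifier, had 163, 1202, 2934 and 339 CPM. MX1, an antiviral GTPase, had 48.1, 140.3, 488 and 87.0 CPM, and the antiviral protein gene IFIT3 5.43, 12.7, 91.1 and 7.56 CPM. CXCL10, a chemokine that draws T cells, had 15.2, 45.5, 151 and 61.2 CPM and was, with ISG15, past 2-fold at 8 h. TAP1 and PSMB9, which serve antigen presentation, were at ratios of 0.54 and 0.51 at 4 h, and CIITA, the regulator of class II genes, at -0.35.

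At 4 h the targets were past 2-fold for 21 of 26 counted in the CD14 gate, 25 of 34 in the CD3E gate, 25 of 33 in the MS4A1 gate and 14 of 20 in the NCR1 gate, with medians of 2.17, 1.61, 2.37 and 1.58. At 8 h the counts were 1 of 19, 5 of 33, 3 of 30 and 0 of 7, and in the CD14 gate 5 of 19 were at least 2-fold lower than in the control, beside 8.44% of all genes counted there and 0 of 7 IRF members. IRF7 and the targets were both at their highest at 4 h. Both are compared with the same control library.

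**Figure D4:**
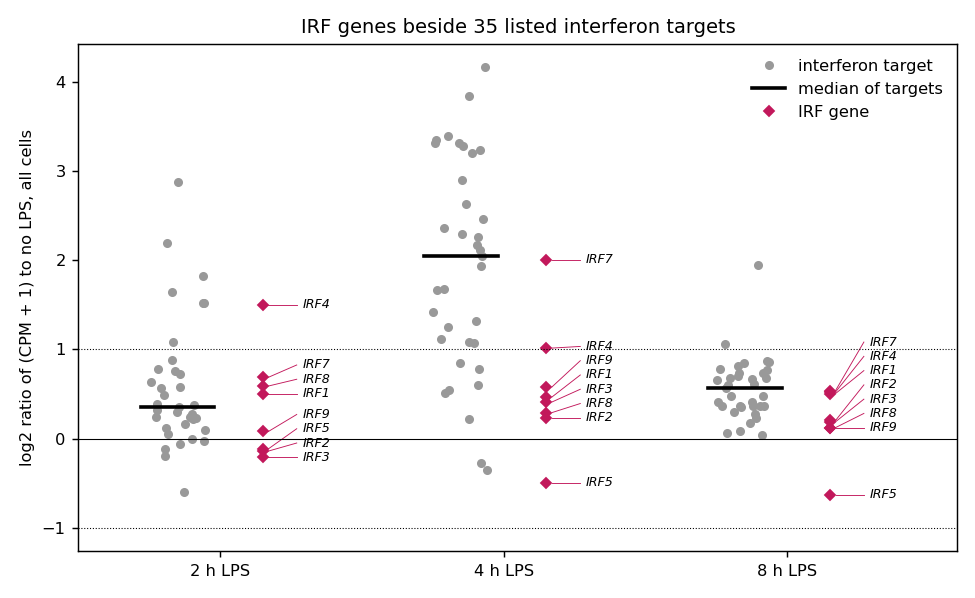
Log2 ratio of (CPM + 1) to no LPS over all cells (vertical axis) at 2 h, 4 h and 8 h for 35 interferon targets (grey points, with their median as a bar) and 8 IRF genes (diamonds, named); dotted lines mark 2-fold. The median of the targets is 0.35, 2.05 and 0.57. At 4 h IRF7, at 2.01, is the one IRF gene near the median. At 8 h IRF7, IRF4 and IRF1, at 0.54, 0.52 and 0.51, lie near it.

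The genes whose levels followed each member most closely were ranked by Pearson r of log2(CPM + 1) over the 16 sums (4 gates by 4 libraries) among 9613 genes. The sums share libraries, so r is a description. IRF7 was followed by DDX58 (r = 0.936), ZNFX1 (0.936) and EIF2AK2 (0.922), and DDX58 and EIF2AK2 are on the list of interferon targets. IRF9 was followed by TRANK1 (0.972), EPSTI1 (0.967) and PML (0.961). IRF5 went with LYN (0.961), ZEB2 (0.941) and GRN (0.940), and IRF8 with CD37 (0.929), BANK1 (0.921), a B cell marker, and SNX25 (0.919).

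The closest genes to IRF4 were QTRT1 (0.917), SLC7A5 (0.894), an amino acid transporter, and STAMBPL1 (0.879). IRF1 went with NUB1 (0.963), PACS1 (0.953) and CHAF1B (0.951), IRF2 with METTL5 (0.991), R3HDM1 (0.990) and ZNF48 (0.990), and IRF3 with SH2B1 (0.971), STK26 (0.970) and RFX7 (0.969). Among the members, IRF2 and IRF3 were most alike (r = 0.935), and IRF5 ran opposite to IRF2 (-0.544) and IRF1 (-0.487).

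Chromatin accessibility was read from the scATAC-seq counts per gene, in which 7 of the 8 members were listed. IRF7 was not analysed here by accessibility, since no table given lists it. Of the values above 0, 88.7% to 93.8% were even, so intervals were computed with 2 counts as 1 event. None of the members was past 2-fold in either direction. It was 0 of 7 at 4 h against 2 h, beside 1.92% of genes, and 0 of 7 at 8 h against 2 h, beside 7.86%. In the 2 h, 4 h and 8 h libraries IRF4 had 133, 137 and 131 CPM, so that the accessibility counts of IRF4 did not differ beyond counting error while its RNA was at 56.3, 39.9 and 28.0 CPM in the same order. IRF1 had 172, 164 and 171 CPM and IRF2 367, 384 and 381 CPM.

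IRF8 was the member with the largest accessibility ratio to 2 h, with 55.9 and 60.7 CPM at 2 h and 4 h and 42.2 CPM at 8 h, a ratio of -0.40 (-0.62 to -0.20) to 2 h. IRF3 was higher at 8 h, at 200.5 CPM against 174 at 2 h (0.20, 0.11 to 0.30), and IRF5 at 238 against 217 CPM (0.13, 0.04 to 0.22). IRF9 had 134, 142 and 144 CPM. In the shallow no LPS library the 7 members had 43 to 326 counts each. There IRF5 had 309.7 CPM (262 to 363), above the 3 LPS libraries, and 307 CPM without the barcodes shared between libraries, and the other 6 members had intervals of the ratio to 2 h that included 0.

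CD3E was not listed in the scATAC-seq tables, so nuclei were set apart, after the tables were seen, by a count on MS4A1 without one on CD28 (380 to 806 nuclei per LPS library) or a count on CD28, a T cell co-receptor gene, without one on MS4A1 (177 to 426 nuclei). IRF5 accessibility was higher in the MS4A1 nuclei in each of the 3 LPS libraries. The levels were 323 against 106 CPM at 2 h, 299.9 against 113 CPM at 4 h, and at 8 h 324 against 137 CPM. The log2 ratios were 1.59 (1.40 to 1.81), 1.40 (1.19 to 1.63) and 1.23 (0.88 to 1.63). It was the 1 of 7 members at least 2-fold higher at each time, beside 6.23%, 4.74% and 7.04% of genes. With LCK in place of CD28 the ratios were 1.26, 1.14 and 0.92, the last under 2-fold.

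The other members differed less between these nuclei. IRF4 had ratios of 0.32 (0.11 to 0.54), 0.30 (0.08 to 0.53) and 0.57 (0.16 to 1.02) toward the MS4A1 nuclei, and IRF8 of 0.53 (0.20 to 0.88), 0.24 (-0.09 to 0.61) and 0.82 (0.03 to 1.75). IRF2 lay the other way, at -0.26 (-0.38 to -0.13), -0.32 (-0.45 to -0.19) and -0.21 (-0.45 to 0.04). IRF1 had intervals that included 0 at each time. In RNA the MS4A1 gate had 103 to 179.9 CPM of IRF5 where the CD3E gate had 4.47 to 8.06 CPM, and 49.4 to 75.1 CPM of IRF8 where the CD3E gate had 1.15 to 2.40 CPM. The nuclei were set apart on a single count and were mixed by other markers. At 2 h the B cell gene PAX5 had 353 CPM in the MS4A1 nuclei and 135 in the CD28 nuclei, and the T cell gene CD2 had 111 and 224 CPM. At 8 h PAX5 had 293 and 124 CPM and CD2 20.8 and 89.5 CPM. The T cell gene CD5 had 75.5 and 139 CPM at 2 h. At 8 h CD5 had 51.3 (40.1 to 64.6) and 62.3 CPM (42.6 to 87.9), so it did not tell the nuclei apart. The sizes of the RNA and accessibility differences are therefore not comparable.

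**Figure D5:**
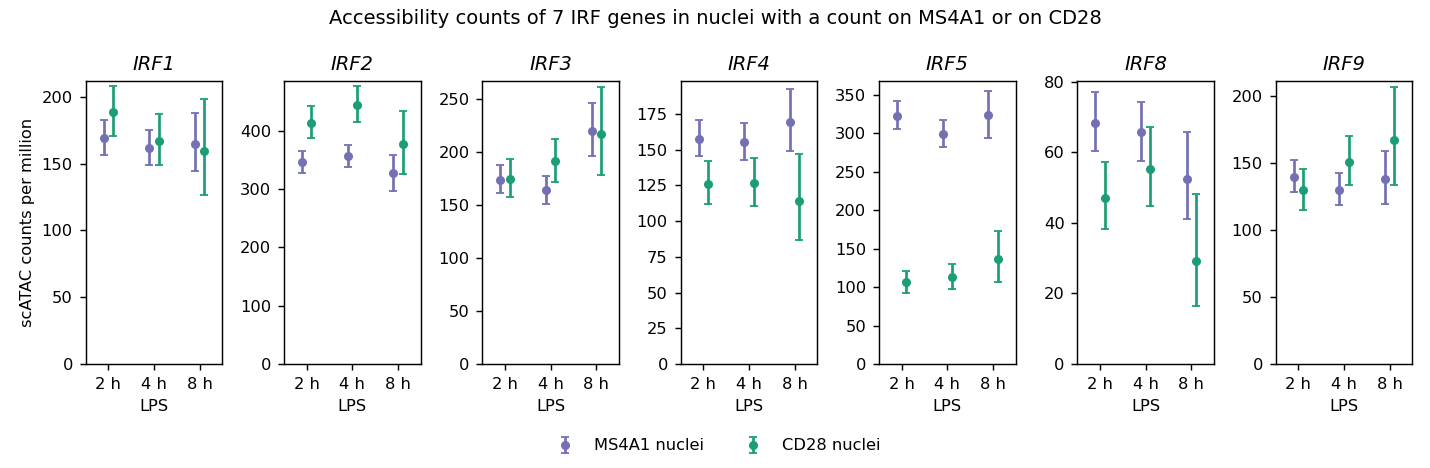
scATAC-seq counts scaled to CPM (linear axes starting at 0) of 7 IRF genes in nuclei with a count on MS4A1 but not CD28, and on CD28 but not MS4A1, at 2 h, 4 h and 8 h of LPS; points are single libraries and bars exact 95% Poisson intervals with 2 counts as 1 event. IRF5 is at 299.9 to 324 CPM in MS4A1 nuclei and at 106 to 137 CPM in CD28 nuclei.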

How the data were processed

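The submitters' processing notes name Cell Ranger and the genome ARS-UCD1.2 (bosTau9). For each barcode of the scRNA-seq libraries the authors deposited unnormalised counts of UMIs by gene. The scATAC-seq tables they deposited hold accessibility counts by gene, whose counting rule is not given in the sources used here. No columns of other samples were left out (0). No sequences or coordinates were used.

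A cell was kept if it had between 200 and 3000 genes (the limits of the study), no fewer than 200 UMIs, and less than 20% of them mitochondrial. The paper reports fewer cells in each scRNA-seq library after its own filters, so the cells kept here are not the same set. No doublet caller was run. Cells with UMIs of more than 1 of the 4 gate markers entered no gate. UMIs were summed per library and gate and scaled to CPM. Accessibility was summed over every deposited barcode and compared with the 2 h library. With 1 library per treatment no model was fitted, and nothing says how treatments would vary between animals. TMM factors came from edgeR 4.0.16 and median-of-ratios factors from DESeq2 1.42.0 in R 4.3.3, as alternatives. All else was computed in Python 3.11.15 with numpy 2.4.6 and scipy 1.17.1. Calls and intervals were tried on simulated Poisson counts with the means and totals of the sums over all cells. The simulation held no variation between cells or libraries and no gates, so it cannot show how calls fare under these. Shares have exact Clopper-Pearson intervals, and a count of 0 allows up to 3 counts.

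The named genes were the 8 members, the genes of the fixed lists past 2-fold over all cells (at most 30 named), and for each member the 3 genes with the highest Pearson r among genes with at least 200 UMIs. TLR4, TBK1, IKBKE, the interferon receptor chains, TAP1, PSMB9 and CIITA were named besides, after their values were seen. TICAM1, IFNB1, IRF2BP1 and BST2 of the lists, and the markers TRAC, PPBP and PF4, matched no row by symbol. The members and lists were chosen with earlier results of these data known. Other alternatives were a pseudocount of 0.1, no minimum of UMIs, other cell filters and gates, equal weights per cell, cells thinned to 1000 UMIs, and the cell makeup of the control.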

Additional observations from a re-analysis of the deposited data

Results flagged for a closer look

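Some members moved in opposite directions in different gates under the same LPS time, which is what set them apart here. Each gate is 1 library per treatment, so the differences between gates were not tested. IRF5 at 2 h had a log2 ratio to the control of -1.01 in the CD14 gate and 0.46 in the MS4A1 gate. In the CD3E gate it was 0.45, on 209 UMIs. With cells of that gate thinned to equal depth, 0.503% (0.293 to 0.804) had an IRF5 UMI without LPS. At 2 h it was 0.499% (0.320 to 0.741), so the thinned share was not higher at 2 h. At 8 h IRF5 was at -0.34 in the CD14 gate, -0.34 in the MS4A1 gate and 0.73 in the CD3E gate. The thinned share of the CD3E gate was then 1.40% (0.869 to 2.13). IRF8 at 2 h was at 0.42 in the MS4A1 gate and -0.65 in the CD3E gate, the latter on 61 UMIs. These were 36 UMIs in 23 cells without LPS and 25 UMIs in 25 cells at 2 h. In the CD3E gate 0.661% (0.419 to 0.989) of cells had an IRF8 UMI without LPS and 0.506% (0.328 to 0.747) at 2 h. Those intervals overlap. IRF2 at 4 h was at 0.12 in the CD3E gate, -0.79 in the CD14 gate and -0.18 in the MS4A1 gate. The median of all genes in the CD14 gate was -0.56 at 2 h and -0.20 at 4 h, and with TMM scaling the IRF5 ratio in that gate at 2 h was -0.53.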

How the results depend on the processing

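The IRF7 ratio at 4 h stayed past 2-fold under every alternative run over all cells (1.69 to 2.12) and in the CD14, CD3E and MS4A1 gates. In the NCR1 gate it was 1.32 to 2.71, with too few UMIs to count (under 20) when cells were thinned to 1000 UMIs. The count of 2 members past 2-fold over all cells at 4 h was 1 with TMM or median-of-ratios scaling, without the upper limit on genes per cell, with every deposited barcode, with cells under 1500 UMIs left out, and with the cell makeup of the control. Over 8 members and 4 gates, the 5 pairs past 2-fold at 2 h were 3 with each cell thinned to 1000 UMIs. The 3 pairs at 8 h were IRF1 and IRF4 in the CD14 gate and IRF4 in the CD3E gate. Their number was 6 with the CD14 gate at 1 UMI and 7 without a minimum of UMIs. Without the upper limit on genes it was 1, and that pair was not among the 3, which were then all under 2-fold. The IRF4 ratio in the CD14 gate at 8 h was -0.58 without that upper limit, on the other side of 0 from its 1.05. The 2 interferon targets past 2-fold at 8 h were 1 with TMM or median-of-ratios scaling, equal weights per cell or the cell makeup of the control. Of 24 RNA ratios over all cells, 21 changed beyond their interval with the cell makeup of the control and 18 with equal cell weights. Without the upper limit on genes 15 did, and 15 with every deposited barcode. With TMM or median-of-ratios scaling 5 did, and with the other alternatives 0. In the gates 29 of 96 did with cells thinned to 1000 UMIs and 13 with TMM scaling. Without the upper limit on genes 8 of the 96 changed and 1 was reversed. The causes were not tested. No accessibility ratio of 14 changed beyond its interval without the barcodes shared between libraries, an alternative chosen after seeing the data. With barcodes weighted equally 7 of the 14 changed beyond it, and with the shallow no LPS library as the base 14 of 14 did. No paired analysis was possible because each treatment had 1 library and the labels carry no replicate numbers, and for the same reason no replicate could be left out. Depth limits the CD14 gate after LPS (66 to 308 cells), the NCR1 gate and the no LPS scATAC-seq library.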

Other observations

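Cells with none of the 4 gate markers were looked at by 3 other markers chosen after the values were seen, summed over the 4 libraries. The 77 cells with at least 2 UMIs of MZB1, a chaperone of antibody-secreting cells, had 233 CPM of IRF4 (203 to 266) and 60.2 CPM of IRF8 (45.4 to 78.1), where the MS4A1 gate had 37.1 to 129 CPM of IRF4. IRF4 in them was 329.9, 163, 167 and 441 CPM in the no LPS, 2 h, 4 h and 8 h libraries, the last on 8 cells, so they did not have the 2 h peak of the MS4A1 gate. Their IRF7 was 32.0, 72.7, 272 and 92.9 CPM, highest at 4 h, and 54.3 CPM summed without the 4 h library against 121 with it. The 50 cells with an FLT3 UMI, a receptor gene of dendritic cells, had 137 CPM of IRF4 (110 to 168) and 35.7 CPM of IRF8 (22.7 to 53.6). By library IRF4 was 78.8, 259, 119 and 119 CPM and IRF8 10.7, 80.0, 27.4 and 43.3 CPM, both highest at 2 h. IRF8 was 20.8 CPM without the 2 h library and 54.9 CPM without the no LPS library. Their IRF7 was at 12.4 CPM (5.37 to 24.5) on 8 UMIs, and at 4 h on 2 UMIs.

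The 276 cells with a UMI of CSF3R, a receptor gene of granulocytes, were shallow, at a median of 1061 to 1693 UMIs per cell. They had 799 CPM of IRF1 (720 to 884), 459 CPM of IRF7 (399 to 525) and 536 CPM of IRF9 (472 to 607), each, summed over the libraries, above the single-library values of the 4 gates. IRF7 in them was 412, 388, 707 and 129.9 CPM in the no LPS, 2 h, 4 h and 8 h libraries, and IRF1 was 1494, 713, 804 and 346 CPM, so that at 8 h IRF1 was below the 567 CPM of the NCR1 gate and IRF7 within the range of the gates. IRF3, IRF4 and IRF8 held 3, 1 and 4 UMIs in these cells.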
